A study of Mus musculus with 2 samples.

Results

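The microRNA clusters miR-106b-25 and miR-106a-363 are the paralogues of the miR-17-92 cluster. Their 9 hairpins were chosen by name: Mir106b, Mir93 and Mir25 of miR-106b-25, and Mir106a, Mir18b, Mir20b, Mir19b-2, Mir92-2 and Mir363 of miR-106a-363. All 9 were among the 1973 microRNA genes counted in hindbrain of mixed-sex B6NCrl mouse embryos at embryonic day 16.5. The series holds 1 group, healthy and untreated by its labels, with 2 libraries from 2 pools of embryos (37 embryos in replicate 2, the number for replicate 1 not being given in the sources used here). The labels number the pools as biological replicates 1 and 2, give both the same donor entry and do not say whether they came from separate litters, so the SD measures only the spread between these 2 pools and libraries. In whole tissue, fewer cells that make a microRNA and less of it per cell cannot be told apart.

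Sequencing reads that fell on a hairpin in its own direction (sense counts) came to 5097205 in replicate 1 and 4460836 in replicate 2. Levels are given as CPM, the counts of a hairpin per 1000000 sense counts of its library, with exact binomial 95% intervals that cover counting error only. The hindbrain microRNAs Mir10a and Mir10b of the Hox clusters held 9.34% ± 1.07 of the counts (SD, n = 2). All 7 neuronal marker hairpins were counted, and 5 of them were detected (10 or more counts in each library). Mir137 led them at 8178 CPM by mean, and the Mir124a hairpins were the lowest. Mir124a-1 stood at 3.62 CPM, and Mir124a-2 (1.42 CPM) and Mir124a-3 (0.322 CPM) were not detected. Reads that fit several places are in no hairpin's count. Low values of hairpins with several copies, such as Mir124a, thus do not show that their mature RNA was low.

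Each of these clusters is cut from 1 primary transcript into hairpins, and each hairpin can give a mature RNA that finds its targets mainly through the seed, its bases 2 to 8. The miR-106b-25 hairpins sit in an intron of Mcm7, a subunit of the helicase that opens DNA for replication and a known target of E2F factors. miR-106b and miR-93 are known to repress the cell cycle inhibitor Cdkn1a, miR-25 represses Cdkn1c, and the cluster has been tied to the proliferation of neural stem and progenitor cells. The X-linked miR-106a-363 cluster is known from embryonic stem cells, and mice that lack it have no obvious defect.

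The mature sequences are shown from RefSeq (GRCm38.p6), which held all 9 members, because the seed sorts the hairpins of both clusters into 4 families. The arm shown is the one usually taken as the main product, 5p or 3p, with the seed in capitals. The counts are per hairpin and do not separate the arms. The miR-17 seed is shared by 4 members:
miR-106b-5p: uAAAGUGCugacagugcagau
miR-93-5p: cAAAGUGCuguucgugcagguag
miR-106a-5p: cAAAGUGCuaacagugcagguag
miR-20b-5p: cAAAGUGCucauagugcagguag
The miR-25/92 seed is shared by 3 members, of which Mir92-2 makes the same mature RNA as Mir92-1 of miR-17-92:
miR-25-3p: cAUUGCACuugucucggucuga
miR-92a-3p: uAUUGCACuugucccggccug
miR-363-3p: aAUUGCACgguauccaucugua
The miR-18 and miR-19 seeds have 1 member each, Mir18b and Mir19b-2, and miR-19b-3p also comes from Mir19b-1:
miR-18b-5p: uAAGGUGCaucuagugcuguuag
miR-19b-3p: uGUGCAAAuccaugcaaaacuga

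For comparison, the miR-17-92 cluster has the following counterparts of miR-106a, miR-20b and miR-18b, with the seed again in capitals:
miR-17-5p: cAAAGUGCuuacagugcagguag
miR-20a-5p: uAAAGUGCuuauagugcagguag
miR-18a-5p: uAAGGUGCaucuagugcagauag
Positions count from 1 at the 5′ end. Against miR-17-5p, miR-106a-5p differed at 1 base, U10A. Against miR-20a-5p, miR-20b-5p differed at 2 bases, U1C and U10C, and miR-18b-5p differed from miR-18a-5p at A18U and A20U. Outside the seed miR-93-5p was further from miR-17-5p, with U10G, A11U, C12U and A13C. Of the 9 members, the mature RNAs of Mir19b-2 and Mir92-2 occurred in a second RefSeq hairpin and the other 7 in none.

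Mir106b and Mir93 were the abundant hairpins of miR-106b-25, at almost equal levels, and Mir25 was far lower. Mir106b (chromosome 5, 138165737 to 138165818, minus strand, mm10) had 33000 counts in replicate 1 and 24238 in replicate 2. This is 6474 CPM (6405 to 6544) and 5434 CPM (5366 to 5502), rank 33 of all genes by mean level. Mir93 (138165523 to 138165610) had 35307 and 24241 counts, or 6927 CPM (6855 to 6999) and 5434 CPM (5366 to 5503), rank 32. The intervals of Mir106b and Mir93 overlapped in replicate 2 and not in replicate 1. The log2 ratio of Mir93 over Mir106b was 0.05 ± 0.07 (SD, n = 2), within the limit of 2 SD used for a difference. Mir25 (138165321 to 138165404) had 1443 and 1093 counts, or 283 CPM (269 to 298) and 245 CPM (231 to 260), rank 156. Mir25 was lower than Mir93 by 23.2-fold (log2 ratio -4.54 ± 0.10) and lower than Mir106b by 22.4-fold (-4.49 ± 0.03; SD, n = 2), both past 2 SD.

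All 3 hairpins lie within 498 nt in intron 13 of the 15-exon transcript Mcm7-201, an intron of 748 nt. GENCODE also lists a retained-intron transcript of Mcm7 whose exons overlap Mir93 and Mir25. Mir93 starts 208 nt and Mir25 414 nt after the start of Mir106b, in the direction of transcription. Mir106b made up 48.1% ± 1.12, Mir93 49.8% ± 1.22 and Mir25 2.14% ± 0.0962 of the counts of the cluster (SD, n = 2). The GC content of the hairpins was 57.3%, 55.7% and 63.1% in that order, against a median of 51.7% over 1005 RefSeq hairpins.

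The 6 hairpins of miR-106a-363 were all far below Mir106b and Mir93. Mir363, the last hairpin along the transcript (chromosome X, 52741693 to 52741767, minus strand), had the most counts, 1117 in replicate 1 and 885 in replicate 2. These are 219 CPM (206 to 232) and 198 CPM (186 to 212). Mir106a, the first (52742503 to 52742567), had 819 and 483 counts, or 161 CPM (150 to 172) and 108 CPM (98.8 to 118). Mir20b (52742113 to 52742192) had 665 and 419 counts, or 130 CPM (121 to 141) and 93.9 CPM (85.1 to 103). Together Mir363, Mir106a and Mir20b held 87.8% ± 0.205 of the counts of the cluster (SD, n = 2). Mir92-2 (52741838 to 52741928) had 226 and 164 counts, 44.3 CPM (38.7 to 50.5) and 36.8 CPM (31.4 to 42.8). Mir18b (52742331 to 52742413) had 126 and 77 counts, 24.7 CPM (20.6 to 29.4) and 17.3 CPM (13.6 to 21.6). Mir19b-2 (52741983 to 52742066) had 5 and 11 counts, 0.981 CPM (0.319 to 2.29) and 2.47 CPM (1.23 to 4.41), and was the only member that fell short of the minimum of 10 counts per library.

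The order Mir363, Mir106a, Mir20b, Mir92-2, Mir18b, Mir19b-2 was the same in both libraries. These counts leave out reads that fit both miR-92a or both miR-19b loci. Mir363 exceeded Mir106a by a log2 ratio of 0.66 ± 0.30 (SD, n = 2), 0.45 in replicate 1 and 0.87 in replicate 2, just past 2 SD. Mir20b over Mir106a was -0.25 ± 0.07 (SD, n = 2), also past 2 SD, but their counting intervals overlapped in replicate 2. Mir363 exceeded Mir92-2, the neighbouring hairpin of the same seed, by 5.06-fold (log2 ratio 2.34 ± 0.09), and Mir18b was below Mir106a by 6.13-fold (-2.62 ± 0.05; SD, n = 2). By mean level, the genes next above and below Mir363 (209 ± 14.7 CPM) were Mir329 at 212 ± 12.3 CPM and Mir148a at 200.2 ± 0.946 CPM, and those next to Mir93 were Mir23a at 6293 ± 103 CPM and Mir106b (SD, n = 2 each). These neighbours were chosen by level, so their closeness to Mir363 and Mir93 follows from the choice.

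**Figure D1:**
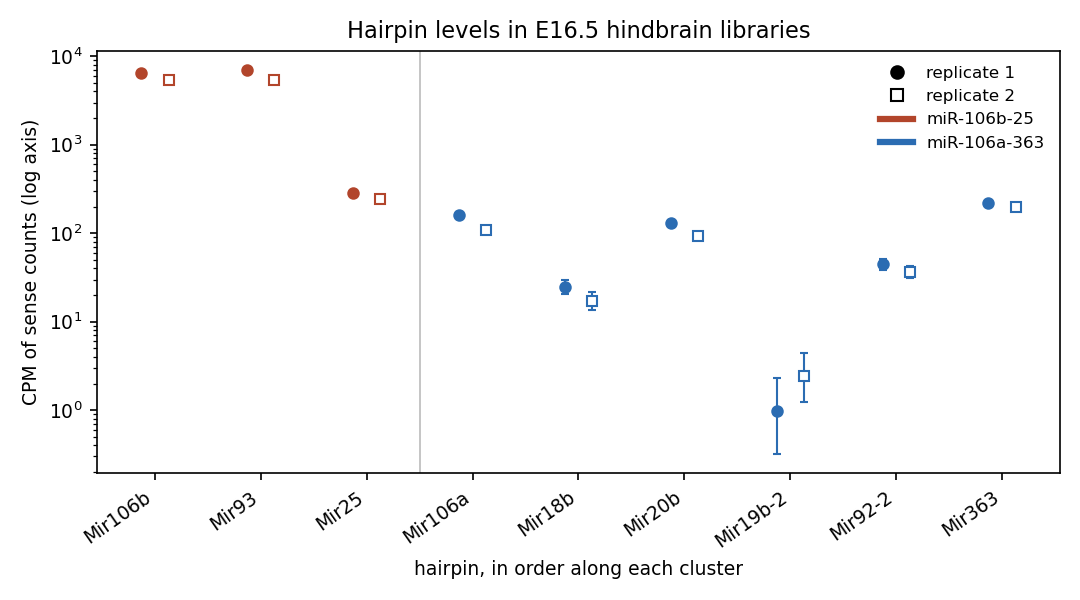
Level of each of the 9 hairpins in CPM on a log axis, in the order of the hairpins along each cluster. Points are the 2 libraries and bars the exact binomial 95% intervals. Mir106b and Mir93 lie between 5434 and 6927 CPM, and the other 7 hairpins lie at or below 283 CPM.

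The identical copies of miR-19b and miR-92a are printed as hairpins, with the shared mature RNA in capitals, because they show what a read must cover to be placed:
Mir19b-2: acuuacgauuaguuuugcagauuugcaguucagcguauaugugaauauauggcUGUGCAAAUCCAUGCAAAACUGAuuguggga
Mir19b-1: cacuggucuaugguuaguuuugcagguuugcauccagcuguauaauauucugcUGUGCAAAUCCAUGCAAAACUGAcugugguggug
Mir92-2: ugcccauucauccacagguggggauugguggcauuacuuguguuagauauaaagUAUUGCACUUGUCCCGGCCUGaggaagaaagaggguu
Mir92-1: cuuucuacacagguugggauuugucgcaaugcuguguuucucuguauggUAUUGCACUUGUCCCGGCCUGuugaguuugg
The longest run of bases shared by the 2 miR-19b hairpins was 25 nt, against a mature length of 23 nt, and that shared by the 2 miR-92a hairpins was 22 nt, against 21 nt. A read of the shared run alone fits both loci. Reads with several places (34.5% of replicate 1 and 35.1% of replicate 2) were deposited only as a total and are in no hairpin's count, so the values of Mir19b-2, Mir92-2, Mir19b-1 and Mir92-1 do not measure miR-19b and miR-92a. Between Mir106a and Mir17 the longest shared run was 13 nt, between Mir20b and Mir20a 14 nt, and between Mir18b and Mir18 17 nt, each shorter than the mature RNA of 23 nt.

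The cluster in Mcm7 was far higher than the miR-106a-363 cluster. miR-106b-25 held 13684 CPM in replicate 1 and 11113 CPM in replicate 2, and miR-106a-363 held 580 and 457 CPM. The log2 ratio of the sums was 4.58 ± 0.03 (SD, n = 2; 4.56 and 4.60), or 23.9-fold, and without Mir19b-2 and Mir92-2 it was 4.70 ± 0.04. The sum of miR-106a-363 lacks reads that fit both miR-19b or both miR-92a loci, so the ratio could be overstated. Leaving out these hairpins can only raise the ratio and cannot test this. The 2 SD rule is lenient: among all 73920 pairs of detected genes, 91.9% passed it. The smallest p that an exact sign-flip test of 2 libraries allows is 0.5, so the ratio is given with its spread and no p.

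The gap between the clusters differed from hairpin to hairpin. Between paralogues, Mir93 exceeded Mir20b by 54.9-fold (log2 ratio 5.78 ± 0.08) and Mir106b exceeded Mir106a by 44.6-fold (5.48 ± 0.22; SD, n = 2). Mir25 exceeded Mir92-2 by 6.39-fold (2.68 ± 0.04), a value that rests on the copy-sharing count of Mir92-2. Mir25 over Mir363, which share a seed and have no copies, was only 1.26-fold (0.34 ± 0.05; SD, n = 2), although their intervals did not overlap in either library. Within the Mcm7 intron the hairpin with the miR-25/92 seed was thus the lowest. Within the X-linked cluster Mir363, of the same seed, was the highest in counts that leave out reads fitting both miR-92a loci.

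miR-17-92 served as the third cluster for comparison. Mir106b was below Mir17 by 1.94-fold (log2 ratio -0.96 ± 0.13) and Mir25 below Mir92-1 by 3.45-fold (-1.79 ± 0.01), while Mir93 was above Mir20a by 1.35-fold (0.44 ± 0.01; SD, n = 2). The members of miR-106a-363 were far lower than their counterparts. Mir18b was below Mir18 by 139-fold (log2 ratio -7.12 ± 0.07) and Mir106a below Mir17 by 86.6-fold (-6.44 ± 0.09; SD, n = 2). Mir20b was below Mir20a by 40.6-fold (-5.34 ± 0.09) and Mir92-2 below Mir92-1 by 22.1-fold (-4.46 ± 0.03; SD, n = 2). The counts of Mir92-1 and Mir92-2 leave out reads that fit both loci. The ratios of Mir25 and Mir92-2 to Mir92-1 thus do not measure miR-92a, and the same limit holds for miR-19b. Mir19b-2 over Mir19b-1, with 24 and 28 counts for Mir19b-1, was -1.30 ± 0.32 (SD, n = 2), a value that the pseudocount moves, to -1.81 with 0 CPM and -0.40 with 10 CPM. In all, 18 of the 19 pairs passed 2 SD, and Mir93 over Mir106b did not. Among all pairs of detected genes 91.9% passed, so this count does not set these hairpins apart.

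**Figure D2:**
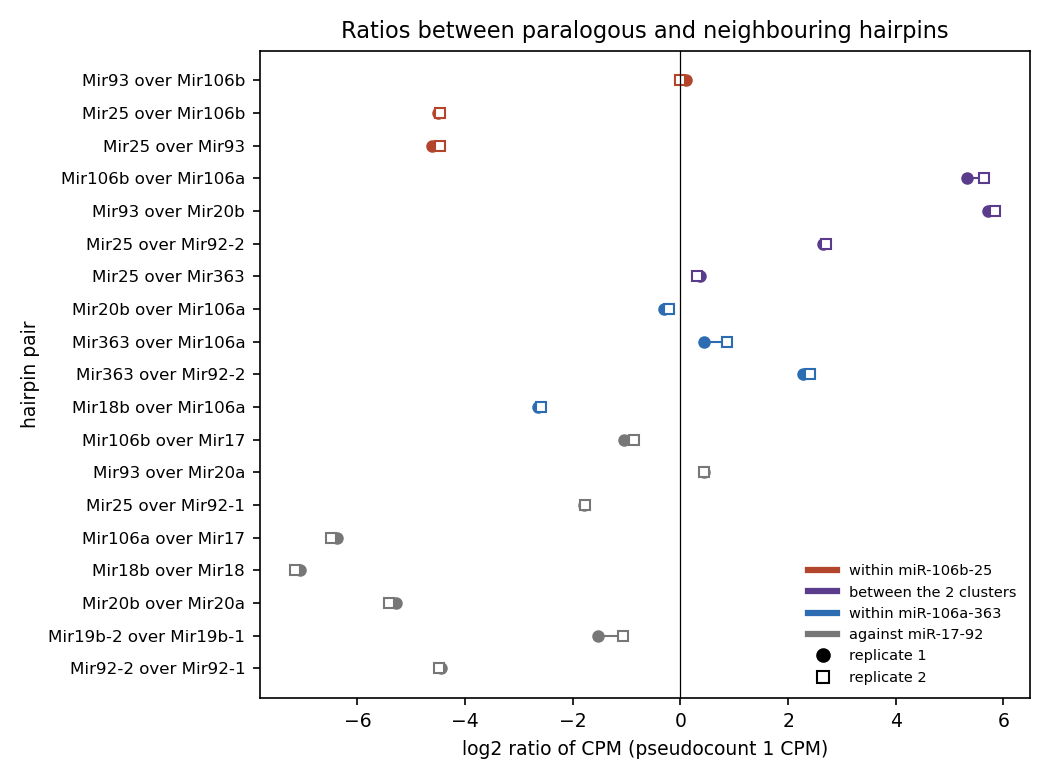
Log2 ratio of CPM for 19 pairs of hairpins, with a pseudocount of 1 CPM. Filled circles are replicate 1, open squares replicate 2, and colours the kind of pair. Mir93 over Mir106b has a mean of 0.05, the pairs between the clusters run from 0.34 to 5.78 by mean, and every pair of a miR-106a-363 hairpin against miR-17-92 lies below 0.

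In counts that leave out reads fitting both copies, the miR-19b hairpin was the lowest of both miR-106a-363 and miR-17-92. These counts do not measure miR-19b. miR-106a-363 spans 875 nt and miR-17-92 spans 836 nt, with the same order of seeds at the first hairpins (miR-17, then miR-18) and a miR-19 hairpin before the miR-92a hairpin. The miR-19b hairpin, next to the miR-92a hairpin in both, stood at 1.72 ± 1.05 CPM for Mir19b-2 and 5.49 ± 1.11 CPM for Mir19b-1 (SD, n = 2). Mir19a, which has no identical copy, stood at 39.2 ± 0.897 CPM.

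**Figure D3:**
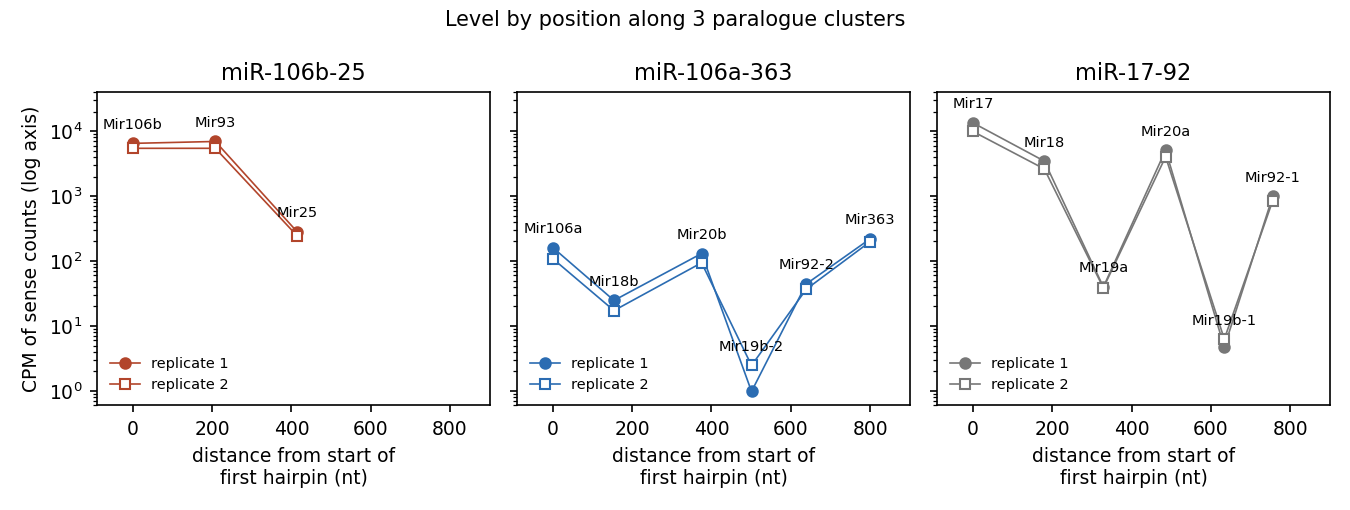
Level in CPM, on a log axis, against the distance of each hairpin from the start of the first hairpin of its cluster in nt, for miR-106b-25, miR-106a-363 and miR-17-92. Lines join the hairpins of 1 library. Mir25 lies below Mir106b and Mir93, and Mir19b-2 and Mir19b-1 are the lowest points of their clusters. Reads that fit both miR-19b loci or both miR-92a loci are left out.

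Summed by seed, miR-106b-25 gave a large part of the miR-17 family and miR-106a-363 little of any family. RefSeq lists 7 hairpins with the miR-17 seed, and all were counted. Mir106b and Mir93 gave 42.6% ± 1.33 of their counts, Mir17 and Mir20a 56.6% ± 1.27, and Mir106a and Mir20b 0.857% ± 0.0670 (SD, n = 2). Mir6383, the remaining hairpin with this seed, had 0 counts. The limit set for such a gene, 3 counts of the total, stood at 0.589 CPM (replicate 1) and 0.673 CPM (replicate 2). Of the miR-18 seed, Mir18b gave 0.683% ± 0.0397 and Mir18 the rest. Of the miR-19 seed, Mir19b-2 gave 2.16% in replicate 1 and 5.21% in replicate 2, from 5 and 11 counts.

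In the miR-25/92 family, miR-106b-25 and miR-106a-363 were close to each other, with 5.64% ± 0.148 from Mir25 and 5.33% ± 0.0244 from Mir363 and Mir92-2 (SD, n = 2). Mir92-1 gave 19.5% ± 0.646, and hairpins outside the 3 clusters gave 69.5% ± 0.819. Of these, Mir92b, on chromosome 3 and known from neural precursors, had 16456 and 13185 counts (3092 ± 193 CPM; SD, n = 2), 11.7 times Mir25 by mean level. Mir92b was singled out after its values were seen. Mir32 reached 157 ± 15.1 CPM (SD, n = 2), below both Mir25 and Mir363, and Mir367 of the pluripotency cluster had 0 counts, with the same limits of 3 counts as Mir6383. These shares leave out reads that fit both miR-92a or both miR-19b loci.

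**Figure D4:**
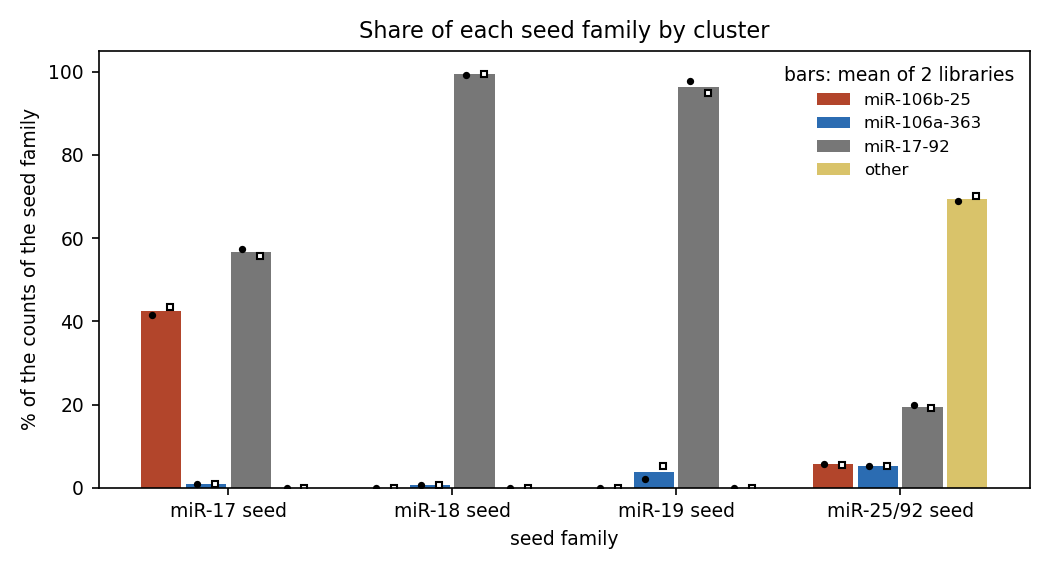
Share of the sense counts of each seed family given by each cluster, in %. Bars are the mean of 2 libraries, with replicate 1 as a filled circle and replicate 2 as an open square. miR-106b-25 gives 42.6% of the miR-17 family, and the 2 clusters give 5.64% and 5.33% of the miR-25/92 family.

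Every member but Mir19b-2 was lower in replicate 2 than in replicate 1. The 2 libraries were compared over all 401 genes whose counts summed to 20 or more, by an exact two-sided binomial test against totals scaled by TMM (edgeR's trimmed mean of M-values), which allows for counting noise only and compares these 2 libraries. At an adjusted p under 0.05, 46.4% of all genes tested differed, 24.4% toward replicate 1 and 21.9% toward replicate 2. Among the 8 members tested, 5 passed with the higher value in replicate 1 and 0 with the higher value in replicate 2. The median log2 ratio of replicate 2 over replicate 1 was -0.25 over these 8, against -0.0029 over all genes tested. For the exact test of edgeR, the biological coefficient of variation was either assumed or estimated. Its estimate took both libraries as 1 group and so holds the differences under test. Few calls with the estimate thus cannot show that the libraries agree. With a biological coefficient of variation set to 0.1, the exact test of edgeR called 0 of the 8 members and 1.75% of all genes, and with the 16.3% estimated from these libraries it called 0 members and 0.748% of all genes. At an unadjusted p under 0.05 these tests counted 1 and 0 of the 8 members, against 8.48% and 2.74% of all genes.

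By seed, the values were as follows. The hairpins with the miR-17 seed fell by log2 ratios of 0.50 for Mir106a (exact binomial interval -0.67 to -0.34), 0.41 for Mir20b (-0.59 to -0.23), 0.29 for Mir93 (-0.31 to -0.26) and 0.19 for Mir106b (-0.21 to -0.16). Those with the miR-25/92 seed had ratios of -0.14 for Mir25 (-0.26 to -0.03), -0.21 for Mir92-2 (-0.50 to 0.09) and -0.08 for Mir363 (-0.21 to 0.05), and of these Mir25 alone passed. Mir18b had -0.45 (-0.88 to -0.03; exact binomial test, adjusted p = 0.0617). In miR-17-92, Mir17 had -0.38, Mir18 -0.33, Mir20a -0.27 and Mir92-1 -0.16, all past the same test. Mir19a had 0.02 and Mir19b-1 0.48 (-0.36 to 1.33), and neither passed. The difference between the seeds was not tested. Hairpins of 1 transcript are not independent of each other.

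Among the marker lists of other tissues, skeletal muscle moved most between the same libraries, and the sums of most others changed little. The skeletal muscle list (3 of 4 counted, Mir1a-1 at 0 counts in both) fell from 375 CPM to 24.9 CPM in sum, mainly through Mir206. Mir206 had a log2 ratio of -3.87, and Mir133b, with 26 and 3 counts, had -2.86. The 0 counts of Mir1a-1 leave out reads that fit several places. The pluripotency list of Mir302 hairpins (4 of 4) fell less, from 842 CPM to 674 CPM. Their log2 ratios ran from -0.18 for Mir302a to -0.56 for Mir302c. The erythroid list held 216 and 206 CPM, and the leukocyte list 401 and 366 CPM. The endothelial Mir126a held 27475 and 29178 CPM, the smooth muscle and mesenchyme list 7618 and 7475 CPM, mostly from Mir143, and Mir122 of hepatocytes 41.0 and 41.9 CPM. Within the mesenchyme list, Mir143 and Mir145a had log2 ratios of 0.07 and 0.22, toward replicate 2. Mir214 of the same list went the other way, with 369 CPM in replicate 1 and 186 CPM in replicate 2, a log2 ratio of -0.93. Its adjusted p by the exact test of edgeR was 0.00158 with the variation set to 0.1 and 0.536 with the estimated variation. The estimated variation holds the differences under test. Of the hindbrain list, Mir10a had a log2 ratio of -0.06 and Mir10b -0.37. Of the neuronal list, Mir137 had -0.28 and Mir124a-1 -0.50, while Mir9-3 had 0.01, Mir128-1 0.26 and Mir128-2 0.36. The part of these markers in the lower values of the 2 clusters was not tested.

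**Figure D5:**
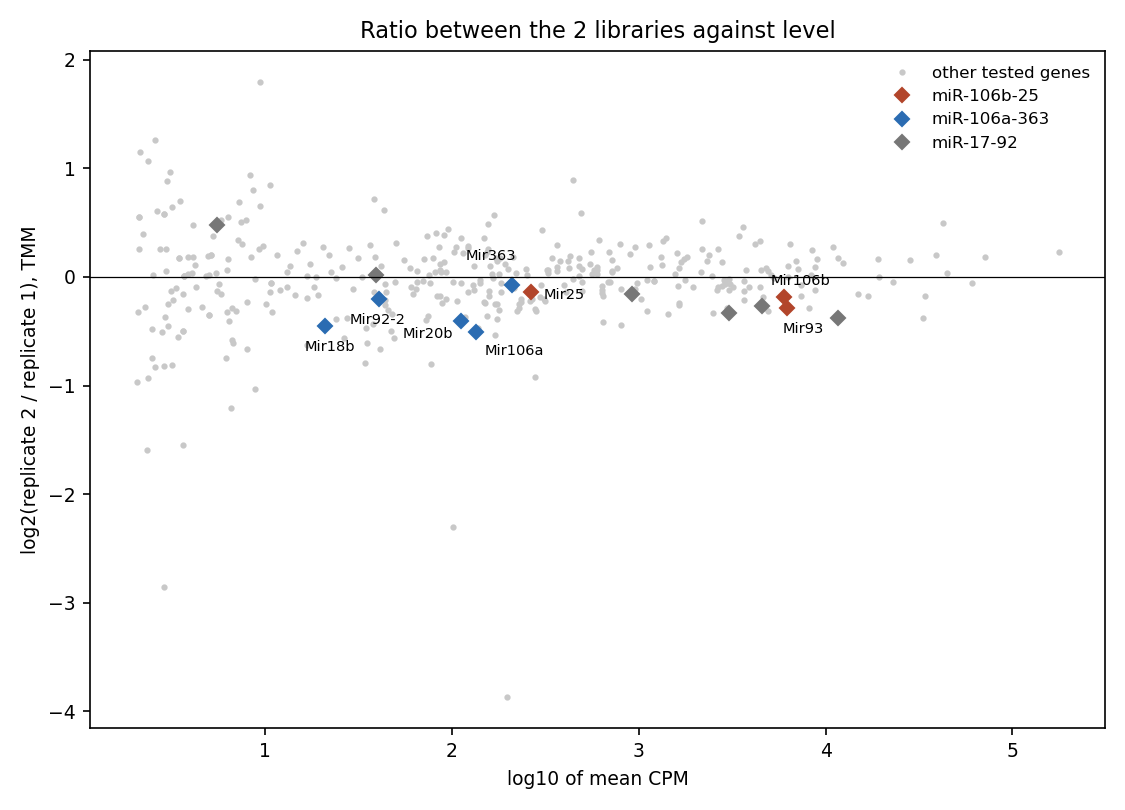
Log2 ratio of replicate 2 over replicate 1 after TMM scaling against log10 of mean CPM for 401 genes. Diamonds mark the 2 clusters and miR-17-92, and grey points are all other genes tested. The 8 tested members lie between -0.50 and -0.08.

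microRNAs known to hold back the cell cycle at the entry to S phase were read beside the clusters as counts. Of the miR-15/16 list, whose members repress cyclins, 5 of 6 were counted and detected, with 5035 ± 243 CPM in sum (SD, n = 2), led by Mir15a. By the exact binomial test, which called 24.4% of all genes toward replicate 1 and 21.9% toward replicate 2, 2 of its 5 tested members were higher in replicate 1 (Mir15a and Mir15b) and 1 in replicate 2 (Mir195a, log2 ratio 0.59). The list of miR-34 and miR-449 hairpins held 6282 ± 67.2 CPM (SD, n = 2), mostly from Mir449a (3869 CPM by mean) and Mir34c (2177 CPM). All 6 were detected, Mir449b with only 14 and Mir449c with only 13 counts in each library. Of these, 1 passed with the higher value in replicate 1 (Mir449a) and 2 with the higher value in replicate 2 (Mir34a and Mir34c). The exact test of edgeR called 0 members of either list at both settings of the variation. The 2 clusters together held 12917 ± 1905 CPM (SD, n = 2). These sums leave out reads that fit several places. The counts of copies such as Mir16-1 and Mir16-2 thus need not measure their mature RNA, and such reads could change which hairpin leads a list.

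The promoter windows of Mcm7 and Kis2 are shown because the 2 clusters, close in sequence, lie next to different ones. In GENCODE, miR-106a-363 has no host gene, apart from an overlap of 5 nt between Mir106a and an exon at the 3′ end of the noncoding gene Kis2 (chromosome X, 52742563 to 52744960, minus strand), which lies just upstream. The sequences run from 250 bases before to 50 bases after the RefSeq start, on the minus strand of GRCm38.p6, with motif matches in capitals. The motifs, searched on both strands, were TTTCGCGC or TTTGGCGC for E2F, CACGTG for the E-box that MYC binds, and CCAAT:
Mcm7, chr5:138171834-138172133: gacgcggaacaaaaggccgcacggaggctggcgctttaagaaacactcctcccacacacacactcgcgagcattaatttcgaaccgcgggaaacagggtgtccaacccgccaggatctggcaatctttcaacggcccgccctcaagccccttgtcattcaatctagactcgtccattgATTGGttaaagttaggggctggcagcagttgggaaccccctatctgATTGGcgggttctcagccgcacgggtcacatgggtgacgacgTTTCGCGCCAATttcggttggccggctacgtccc
Kis2, chrX:52744544-52744843: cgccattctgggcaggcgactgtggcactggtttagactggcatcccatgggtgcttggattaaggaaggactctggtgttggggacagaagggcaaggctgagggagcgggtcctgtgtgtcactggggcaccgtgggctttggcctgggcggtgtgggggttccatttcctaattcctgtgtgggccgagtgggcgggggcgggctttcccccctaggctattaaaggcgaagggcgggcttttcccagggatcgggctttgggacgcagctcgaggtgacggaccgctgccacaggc
The Mcm7 window held 1 E2F match, TTTCGCGC, which starts 16 bases after the RefSeq start and overlaps a CCAAT match, and 3 CCAAT matches in all. Of 32851 promoter windows of this length, 0.813% held an E2F match of these letters, 37.4% a CCAAT match and 7.15% the E-box. A second RefSeq start of Mcm7 had a window with 1 CCAAT match and no E2F match. The Kis2 window held none of the 3 motifs, and no E-box was found in any of these windows. Binding and transcription were not measured, so the matches are a description of these letters.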

How the data were processed

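Small RNA libraries (total RNA, size range below 30 nt per the labels) were made from 2 pools of E16.5 hindbrain. The authors deposited unnormalised read counts for each gene, on mm10 with GENCODE M4 per the text that accompanies each sample. The aligner and the counting tool were not given in the sources used here. Lines that name no gene stayed out of the totals: unmapped reads were 15.5% and 15.2% and multimapping reads 34.5% and 35.1% of all reads. The strand column with the larger total, 97.6% of counts on listed genes in each library, was taken as sense. Gene IDs were matched without version to GENCODE M21 (GRCm38), and 1894 of 1973 matched, the other 79 holding 4 sense counts in each library.

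Members, lists, pairs, motifs and tests were chosen with earlier results of these data known. The genes named are the 9 members, miR-17-92, Mir32, Mir367, the level neighbours of each cluster's most abundant hairpin, and members of the cell cycle and marker lists. Mir92b and Mir6383, found by their seed, were added after values were seen. Mir1a-2 and Mir497 were not analysed here. Ratios use log2(CPM + 1) and were called different with the same sign in both libraries and a mean over 2 SD. The binomial test, with Benjamini-Hochberg adjustment over all genes tested, was tested on counts simulated with counting noise only. That simulation cannot show how the test behaves under the wider spread of these libraries. A count of 0 was given a limit of 3 counts. Reads have no molecular identifiers, so intervals and limits cover counting error only, and a bias of sequence that both libraries share would not show. Mature reads were not divided by length. The tools were edgeR 4.0.16 and DESeq2 1.42.0 in R 4.3.3, and scipy 1.17.1, numpy 2.4.6, matplotlib 3.10.9 and pandas 2.3.3 in Python 3.11.15.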

Additional observations from a re-analysis of the deposited data

How the results depend on the processing

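The cluster ratio kept its direction and stayed past 2 SD under unstranded counts, pseudocounts of 0 and 10 CPM and the omission of Mir19b-2 and Mir92-2. That omission can only raise the ratio, so it cannot show the effect of reads that fit both copies. The log2 cluster ratio was 5.57 as a mean per hairpin, since the clusters have 3 and 6 hairpins, and 5.48 for Mir106b over Mir106a. With 1 library left out it ran from 4.56 to 4.60. The same 18 of 19 pairs count was found with unstranded counts and both pseudocounts. At the main setting, 91.9% of all pairs of detected genes passed. The levels depend on the total. Without the most abundant gene in the total, the 9 members held 15671 CPM, miR-106b-25 15042 CPM and miR-106a-363 629 CPM, and with multimapping reads in the total 7363, 7068 and 296 CPM. With 1 library left out they ran from 11570 to 14264, 11113 to 13684 and 457 to 580 CPM. The count of 5 members that differed between the libraries was 6 with plain totals, which move every log2 ratio by 0.06 (48.1% of all genes called), 5 with DESeq2 size factors (46.4%), 5 with unstranded counts (47.2%), 4 of 9 members tested without a count minimum (24.3%) and 6 with a minimum of 100 (59.5%). It was 0 by the exact test of edgeR with a biological coefficient of variation set to 0.1, and 0 at the 16.3% estimated from these libraries, an alternative chosen after seeing the data. Both allow for more spread than counting noise, but the estimate holds the differences under test. Its 0 calls thus cannot show that the libraries agree. No paired analysis was possible because the series has 1 group. Mir19b-2, with 5 and 11 counts, has the widest counting interval of the members, relative to its level.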
